A study of Homo sapiens with 10 samples.

Results

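LCP1, PLS1, PLS3 and FSCN1 encode 4 proteins that tie actin filaments into parallel bundles, and their mRNAs were followed in A375, a BRAF-mutant line grown from a human melanoma. The 4 symbols were matched to 4 of the 60623 Ensembl gene IDs in the deposited count tables, and all 4 passed the filter on low counts that left 18450 genes for testing. LCP1 was chosen by its measured fold changes, which ran in opposite directions in the 2 knockdowns of the study, and the other 3 are its family members and a bundler of another family. The fold changes of LCP1 are therefore given as a description without a test. The 10 libraries were made 72 h after transfection and came from 2 experiments. Experiment 1 held 4 libraries of cells given a small interfering RNA (siRNA) against PHF10, a subunit of the PBAF chromatin-remodelling complex, and 2 control libraries. Experiment 2 held 2 libraries labelled as knockdown of MYC, a transcription factor of growth genes, and 2 control libraries of its own. The labels leave it unclear whether controls received the control siRNA of the protocol, since their own field gives no treatment. Nothing in the labels makes the replicates separate cultures, and p-values then cover the spread of these libraries alone, which may be technical.

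Plastins are a family of actin bundlers built from a calcium-binding head and actin-binding domains that each grip a filament, so that 1 molecule holds a pair of filaments side by side. LCP1, also called L-plastin, is the plastin of white blood cells and is often switched on in tumour cells of other origin. PLS3 (T-plastin) is the form of most solid tissues, and PLS1 (I-plastin) is best known from the microvilli of intestine and the hair cells of the inner ear. FSCN1 (fascin) belongs to a separate family and packs the filaments of filopodia, the finger-like protrusions of migrating cells.

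LCP1 (ENSG00000136167) lies on the minus strand of chromosome 13 from 46125920 to 46211871, in GRCh38 coordinates of GENCODE release 29. PLS1 (ENSG00000120756) lies on the plus strand of chromosome 3 from 142596387 to 142713664. PLS3 (ENSG00000102024) lies on the plus strand of chromosome X from 115561174 to 115650861. FSCN1 (ENSG00000075618) lies on the plus strand of chromosome 7 from 5592823 to 5606655. Overlapping genes held few reads: PLS3-AS1, on the strand opposite PLS3, had at most 29 in a library, and PLS1-AS1 and the small RNA RN7SL288P inside LCP1 had 0 in all 10.

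The promoters of the 3 plastins are shown because LCP1 was chosen for its response and set against its relatives, and these are stretches where transcription of each can begin. Each runs from 250 bases before to 50 bases after a RefSeq start (GRCh38.p14), and capitals mark TATAAA, read on either strand. They cover chr13:46182128-46182427 on the minus strand for LCP1, chr3:142596143-142596442 on the plus strand for PLS1 and chrX:115560924-115561223 on the plus strand for PLS3. RefSeq gives further starts for PLS1 and PLS3 that are not shown, and the gene counts do not tell which start was used.
LCP1: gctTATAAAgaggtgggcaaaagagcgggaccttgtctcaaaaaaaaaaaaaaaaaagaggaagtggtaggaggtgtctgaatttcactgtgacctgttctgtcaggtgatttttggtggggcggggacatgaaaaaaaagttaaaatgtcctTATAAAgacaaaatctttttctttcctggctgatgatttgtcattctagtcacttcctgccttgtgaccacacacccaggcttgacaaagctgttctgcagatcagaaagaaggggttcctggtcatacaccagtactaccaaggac
PLS1: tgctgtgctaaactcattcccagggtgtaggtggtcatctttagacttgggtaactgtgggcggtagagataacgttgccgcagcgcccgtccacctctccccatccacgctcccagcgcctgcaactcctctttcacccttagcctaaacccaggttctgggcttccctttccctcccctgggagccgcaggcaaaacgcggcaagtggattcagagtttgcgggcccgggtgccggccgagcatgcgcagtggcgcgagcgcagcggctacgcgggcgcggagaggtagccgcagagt
PLS3: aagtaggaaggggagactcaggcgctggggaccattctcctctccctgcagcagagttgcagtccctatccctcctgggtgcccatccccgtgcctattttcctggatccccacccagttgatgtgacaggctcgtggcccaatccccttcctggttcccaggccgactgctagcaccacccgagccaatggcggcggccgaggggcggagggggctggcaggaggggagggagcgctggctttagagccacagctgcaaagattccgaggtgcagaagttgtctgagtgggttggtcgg
The LCP1 window held 42.7% G or C and 2 CpG pairs, against 63% and 24 in the PLS1 window shown, 63.3% and 12 in the PLS3 window shown, and medians of 58.7% and 14 over 35116 RefSeq promoters of the same length. The contrast depends on the starts taken: the other RefSeq windows held 38.7% and 36% G or C with 0 CpG pairs for PLS1, and 37.7% with 4 for PLS3. The LCP1 start also lies inside the GENCODE gene, whose 5′ end falls in the LRRC63 window (69.3% and 33). TATAAA occurred at 2 places in the LCP1 window, starting 247 and 97 bases before the RefSeq start, at 0 places in the PLS1 and PLS3 windows, and in 11.5% of all promoters. CACGTG, the canonical binding sequence of MYC with its partner MAX, was in none of the 3 windows and in 7.26% of all promoters. TGANTCA, the AP-1 sequence, was likewise in none of the 3 and in 7.71% of all. These matches describe letters and not binding.

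Gene-assigned reads ran from 21.04 to 26.98 M for PHF10 knockdown and were 20.5 and 23.7 M for its controls, with 38.4 and 30.01 M for the labelled MYC knockdown and 36.6 and 33.2 M for its controls. PHF10 itself averaged 16.2 ± 1.2 CPM (counts per M gene reads, with TMM-scaled totals; SD, n = 4) in its knockdown and 38.4 ± 2.4 CPM (SD, n = 2) in the controls, and fell by 1.24 as a log2 fold change (SE 0.10; adjusted p = 0.00105 by the quasi-likelihood test of edgeR with Benjamini-Hochberg adjustment). The labelled MYC knockdown had 16.7 and 13.3 CPM of MYC mRNA, against 15.0 and 26.5 CPM in its controls, a log2 difference of −0.46 (SE 0.39; edgeR adjusted p = 0.688). The MYC level thus overlapped between the groups, and each direction drawn from experiment 2 rests on its labels. In experiment 1, MYC mRNA averaged 14.8 ± 5.2 CPM (SD, n = 4) after PHF10 knockdown and 26.2 ± 8.4 CPM (SD, n = 2) in the controls. These groups overlapped too, with a log2 difference of −0.82 (SE 0.33; edgeR adjusted p = 0.174). A list of 43 type I interferon genes split experiment 1 across its groups, with a mean log2 CPM of 7.62, 7.35, 3.66 and 4.89 in PHF10 knockdown replicates 1 to 4, against 7.98 and 4.75 in control replicates 1 and 2. The defining melanoma marker SOX10 stood at 528 to 948 CPM in all libraries, while the pigment genes MLANA and TYR stayed at or below 0.06 CPM. Of 12 melanocyte markers 10 were tested, and 1 of them, S100B, fell after PHF10 knockdown (−1.11, edgeR adjusted p = 0.00924), where 6.34% of all genes passed. In the labelled MYC knockdown 0 passed, where 0.493% did. At an unadjusted p under 0.05, 5 of the 10 passed after PHF10 knockdown and 2 in the labelled MYC knockdown, beside 4184 and 2435 of all 18450 genes. The median log2 fold change of the 10 was −0.42 and 0.05. Of the 43 interferon genes 0 passed in either knockdown by edgeR (1 and 0 at an unadjusted p under 0.05). Fitted alone, experiment 1, where only 0.28% of all genes passed, gave 0 calls on both lists. Experiment 2 alone, where 44.5% of all genes passed, gave 3 higher and 3 lower of 8 tested melanocyte markers. It also gave 6 higher and 12 lower interferon genes.

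LCP1 mRNA was low in most libraries and stood out in 1 group. It had 3.40, 2.51, 2.52 and 2.91 CPM in the PHF10 knockdown libraries, against 1.07 and 1.43 CPM in the controls of experiment 1. All 4 knockdown libraries lay above both controls, on 62 to 76 LCP1 reads per knockdown library and 23 and 33 reads in the controls. Among all tested genes, 13.4% had every PHF10 knockdown library above both controls. The labelled MYC knockdown had 2.73 and 3.13 CPM of LCP1, against 15.2 and 14.3 CPM in the controls of experiment 2. Both labelled libraries lay far below their controls, with 102 and 91 reads against 532 and 453 reads. Among all tested genes, 36% lay below both controls in that comparison. The fitted log2 fold change was 1.18 (SE 0.22) after PHF10 knockdown and −2.33 (SE 0.23) in the labelled MYC knockdown. In linear terms the group means stood 2.27-fold higher after PHF10 knockdown and 5.04-fold lower in the labelled MYC knockdown, relative to their own controls. In bulk RNA, fewer cells with a transcript and less of it per cell cannot be told apart.

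The LCP1 levels of the 2 knockdowns were close to each other, while those of the 2 control groups were far apart. The controls of experiment 2 averaged 14.7 ± 0.63 CPM and those of experiment 1 averaged 1.25 ± 0.25 CPM (SD, n = 2 each), an 11.8-fold difference. The libraries labelled MYC knockdown averaged 2.93 ± 0.28 CPM (SD, n = 2) and the PHF10 knockdown libraries 2.83 ± 0.42 CPM (SD, n = 4), a ratio of 1.03, and their ranges overlapped. The experiment and anything that differed with it cannot be told apart in these comparisons between experiments. PHF10 itself differed between the same controls, with 124.5 ± 0.48 CPM in experiment 2 and 38.4 ± 2.4 CPM in experiment 1 (SD, n = 2 each). Set beside the interferon split of experiment 1, LCP1 had 3.40 and 2.51 CPM in the knockdown libraries with high interferon genes, against 1.07 CPM in control replicate 1, where they were also high. It had 2.52 and 2.91 CPM in the knockdown libraries with lower interferon genes, against 1.43 CPM in control replicate 2. The labels do not match these controls to particular knockdown libraries. With the mean of the interferon list as a covariate the fitted log2 fold change was 1.18. These are LCP1 values that the choice of the gene used, and the part of the interferon split in them was not tested.

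**Figure D1:**
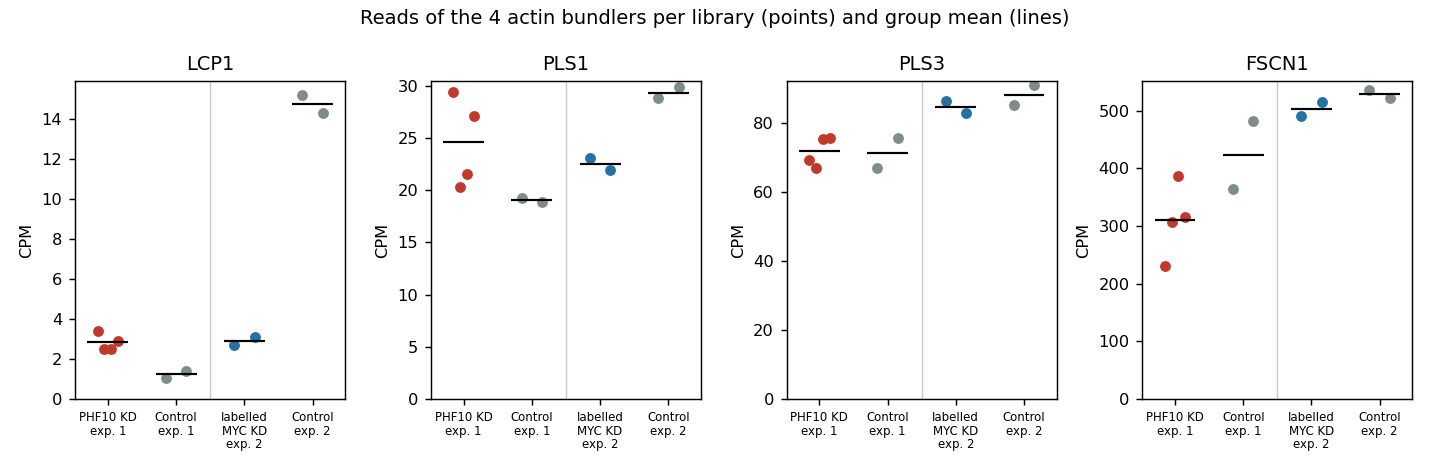
CPM of LCP1, PLS1, PLS3 and FSCN1 in each library (points) with the group mean (lines), each axis starting at 0; the grey line parts experiment 1 from experiment 2, and each knockdown stands left of its controls. LCP1 lies between 2.51 and 3.40 CPM in both knockdowns, against 1.07 and 1.43 CPM in the controls of experiment 1 and 15.2 and 14.3 CPM in those of experiment 2, while the PLS3 groups overlap within each experiment.

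PLS1, the intestinal plastin, had differences of the same sign as LCP1 in both experiments, which were smaller and missed the threshold. It had 29.4, 20.3, 21.6 and 27.1 CPM in the PHF10 knockdown libraries, against 19.2 and 18.9 CPM in their controls. All 4 knockdown libraries lay above both controls, although 2 of them by little. The log2 fold change was 0.37 (SE 0.16; 95% interval 0.01 to 0.72; adjusted p = 0.205 by edgeR). In the labelled MYC knockdown PLS1 had 23.1 and 21.9 CPM, against 28.8 and 29.9 CPM in their controls. These groups did not overlap either, and the log2 fold change was −0.38 (SE 0.18; interval −0.79 to 0.02; adjusted p = 0.399). Among all tested genes, 2.48% had both knockdown groups clear of their controls in these directions. The difference of the 2 responses was 0.75 (SE 0.24; interval 0.22 to 1.29) and also missed the threshold (adjusted p = 0.234). With experiment 2 fitted alone, whose replicates varied far less, PLS1 fell by 0.37 (adjusted p = 1.34e-05), in a fit that called 44.5% of all genes. The common biological coefficient of variation was 3.39% in experiment 2 alone, 26.7% in experiment 1 alone and 21.4% in the fit of both.

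PLS3, the main plastin of these cells, showed no difference that passed the threshold in either knockdown. It had 69.2, 67.0, 75.3 and 75.7 CPM in the PHF10 knockdown libraries, against 67.1 and 75.6 CPM in their controls. The groups overlapped fully, and the log2 fold change was 0.01 (SE 0.10; 95% interval −0.22 to 0.24; edgeR adjusted p = 0.972). The labelled MYC knockdown gave 86.5 and 82.9 CPM of PLS3, against 85.3 and 91.0 CPM in its controls. These overlapped too, with a log2 fold change of −0.06 (SE 0.12; interval −0.32 to 0.20; adjusted p = 0.894). The difference of the responses was 0.07 (SE 0.16; interval −0.28 to 0.41; adjusted p = 0.937).

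FSCN1, the bundler of filopodia, was the most abundant of the 4, and its groups overlapped in experiment 1. It had 229.8, 306.5, 387.1 and 316.4 CPM in the PHF10 knockdown libraries, against 364 and 481 CPM in their controls. Knockdown replicate 3 lay above control replicate 1, and the log2 fold change of −0.45 (SE 0.19; 95% interval −0.88 to −0.01) missed the threshold (edgeR adjusted p = 0.207). Set beside the interferon split, FSCN1 had 229.8 and 306.5 CPM in the knockdown libraries with high interferon genes, against 364 CPM in control replicate 1. The knockdown libraries with lower interferon genes had 387.1 and 316.4 CPM, against 481 CPM in control replicate 2. Whether the FSCN1 level followed the split was not tested. With the interferon mean as a covariate FSCN1 fell by 0.51 (adjusted p = 0.0158), in a fit that called 13.9% of all genes, of which the lower ones were 7.82% of all. The log2 fold change was −0.23 without control replicate 2 (adjusted p = 0.705), and −0.64 without control replicate 1 (adjusted p = 0.208). In experiment 2 FSCN1 had 491.4 and 515.6 CPM under the MYC knockdown label, against 535.9 and 521.6 CPM for controls. The labelled libraries lay just below both controls, with a log2 fold change of −0.07 (SE 0.23; interval −0.58 to 0.44; adjusted p = 0.937). The difference of the responses was −0.38 (SE 0.30; interval −1.05 to 0.29; adjusted p = 0.735).

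In the edgeR fit of 4 group means, 0 of the 3 genes set against LCP1 passed the threshold in either knockdown. Over all tested genes, 6.34% passed after PHF10 knockdown (2.75% higher, 3.58% lower), 0.493% in the labelled MYC knockdown (0.282% higher, 0.211% lower) and 0.385% for the difference of the responses (0.26% higher). At an unadjusted p under 0.05, PLS1 and FSCN1 passed after PHF10 knockdown (0.0441 and 0.0446), none of the 3 in the labelled MYC knockdown, and PLS1 for the difference (0.0109). Of the 18450 tested genes, 4184 were under this unadjusted limit after PHF10 knockdown, 2435 in the labelled MYC knockdown and 2157 for the difference. DESeq2 called 0 of the 3 after PHF10 knockdown, in the labelled MYC knockdown and for the difference, where it called 11.7%, 3.9% and 3.43% of all genes. Limma-voom also called 0 of the 3, beside 5.9%, 1.14% and 0.314% of all genes. Between the controls, 14.6% of genes passed (8.05% higher), and PLS1 was 0.62 higher in log2 units in experiment 2 than in experiment 1 (SE 0.18; edgeR adjusted p = 0.0465). The PLS1 call was lost in 7 of the 10 fits that left out 1 library (adjusted p = 0.0508 to 0.207). PLS3 missed the threshold between the controls at 0.30 (SE 0.12, adjusted p = 0.114), as did FSCN1 at 0.32 (SE 0.23, adjusted p = 0.374). With the interferon covariate, PLS3 passed at 0.29 (adjusted p = 0.0346), where 13.2% of genes passed as higher.

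**Figure D2:**
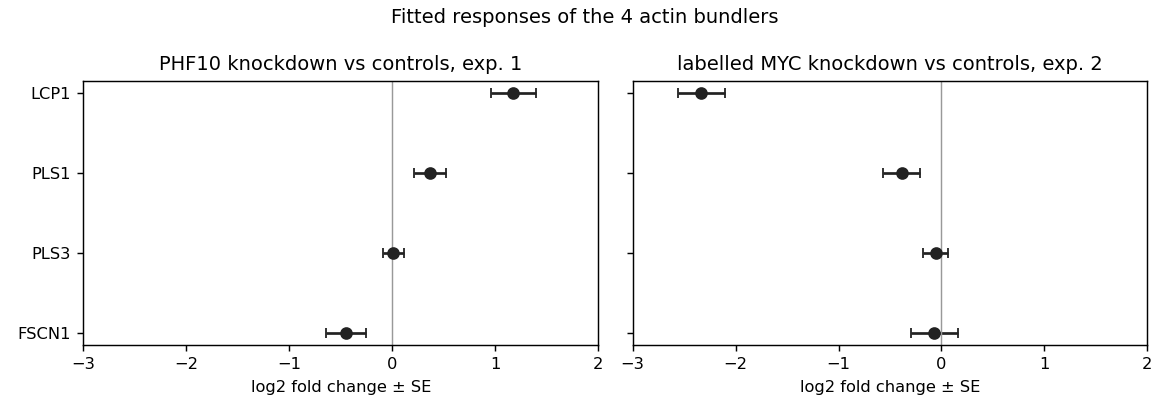
Fitted log2 fold changes of the 4 bundlers (points) with their SE (bars) after PHF10 knockdown and in the labelled MYC knockdown, each against the controls of its experiment. LCP1 lies at 1.18 and −2.33, PLS1 at 0.37 and −0.38, PLS3 at 0.01 and −0.06, and FSCN1 at −0.45 and −0.07.

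Scaled by the length of the merged exons in GENCODE release 29, the order of levels was FSCN1, PLS3, PLS1 and LCP1 in all 10 libraries. FSCN1 averaged 84.0 ± 17 reads per kb of exon per M gene reads (RPKM; SD, n = 4) in PHF10 knockdown, 114 ± 22 RPKM in the controls of experiment 1, 136 ± 4.6 RPKM in the labelled MYC knockdown and 143 ± 2.7 RPKM in the controls of experiment 2 (SD, n = 2 each). PLS3 averaged 17.5 ± 1.1 RPKM in PHF10 knockdown (SD, n = 4), 17.4 ± 1.5 RPKM in the controls of experiment 1, 20.7 ± 0.63 RPKM in the labelled MYC knockdown and 21.5 ± 0.99 RPKM in the controls of experiment 2 (SD, n = 2 each). LCP1 averaged 0.56 ± 0.08 RPKM in PHF10 knockdown (SD, n = 4), 0.25 ± 0.05 RPKM in the controls of experiment 1, 0.58 ± 0.06 RPKM in the labelled MYC knockdown and 2.91 ± 0.12 RPKM in the controls of experiment 2 (SD, n = 2 each). Neighbours in this order did not overlap in any group.

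The make-up of the plastin mRNA pool is described next. Its LCP1 shares and folds rescale the LCP1 counts that the choice of the gene used, and they were not tested. Of the summed RPKM of the 3 plastins, LCP1 made up 2.46 ± 0.31% in PHF10 knockdown (SD, n = 4), against 1.15 ± 0.16% in the controls of experiment 1 (SD, n = 2). It made up 2.27 ± 0.28% in the labelled MYC knockdown, against 9.73 ± 0.74% in the controls of experiment 2 (SD, n = 2 each). PLS1 made up 20.4 ± 2.9% in PHF10 knockdown (SD, n = 4), against 17.0 ± 1.4% in the controls of experiment 1 (SD, n = 2). In the labelled MYC knockdown PLS1 made up 16.7 ± 0.13%, against 18.5 ± 0.13% in the controls of experiment 2 (SD, n = 2 each). PLS3 made up 73.1% to 80.1% in PHF10 knockdown, against 81.0% and 82.7% in the controls of experiment 1, and 81.2% and 81.0% in the labelled MYC knockdown, against 71.1% and 72.4% in the controls of experiment 2. Per kb, PLS3 exceeded LCP1 25.1-fold to 36.9-fold in PHF10 knockdown, against 77.6-fold and 65.5-fold in the controls of experiment 1. It exceeded LCP1 39.2-fold and 32.8-fold in the labelled MYC knockdown, against 6.94-fold and 7.86-fold in the controls of experiment 2. LCP1 was thus a minor plastin mRNA in each library, and the controls of experiment 2 had the highest share.

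**Figure D3:**
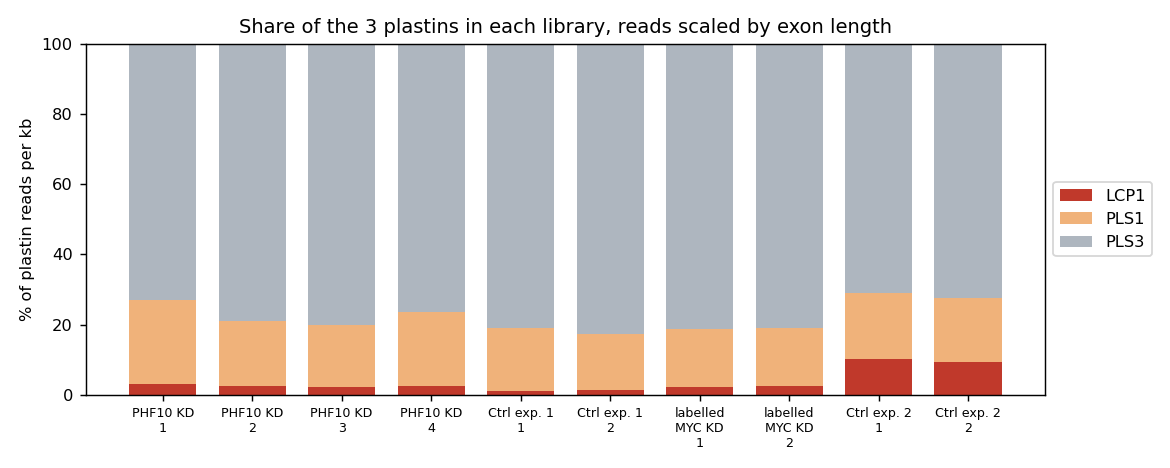
Share of LCP1, PLS1 and PLS3 in the summed RPKM of the 3 plastins, as stacked bars from 0 to 100% for each library, with each knockdown left of its controls. LCP1 takes 10.3% and 9.20% in the controls of experiment 2 and 1.04% to 2.90% in the other 8 libraries, and PLS3 takes the most in all 10.

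Of the other genes within 250 kb of LCP1 on chromosome 13, none of those tested passed the threshold in either knockdown. Over all tested genes, 6.34% passed after PHF10 knockdown and 0.493% in the labelled MYC knockdown. ZC3H13, an RNA-methylation factor 73160 bases away on the same strand, had 128 to 172 CPM in PHF10 knockdown, against 148 and 165 CPM in the controls of experiment 1, and 161 and 152 CPM in the labelled MYC knockdown, against 156 and 167 CPM for controls of experiment 2. Its log2 fold changes were −0.01 and −0.04 (edgeR adjusted p = 0.973 and 0.948). RUBCNL, an autophagy factor 130128 bases away, had 2.59 to 3.08 CPM in PHF10 knockdown, against 3.99 and 4.02 CPM in the controls of experiment 1. Its log2 fold changes in the PHF10 and labelled MYC knockdowns were −0.48 and −0.08 (edgeR adjusted p = 0.161 and 0.913). LRRC63 starts on the other strand with 71 bases between it and the far end of the LCP1 annotation, and it stayed at 0.17 to 0.77 CPM in all libraries. Its log2 fold changes were 0.73 after PHF10 knockdown and −0.94 in the labelled MYC knockdown, with adjusted p of 0.426 and 0.506 at that low level. CPB2, the remaining protein-coding neighbour within 250 kb, had at most 0.35 CPM and was not tested. The antisense gene CPB2-AS1 stayed at or below 2.10 CPM, with log2 fold changes of 0.94 and 0.76 (adjusted p = 0.219 and 0.637). The non-coding LINC01198, 243260 bases away, had log2 fold changes of −0.06 and −0.61 (edgeR adjusted p = 0.888 and 0.265). The pseudogene ENSG00000285576, 246189 bases away, had 0.30 and −0.83 (edgeR adjusted p = 0.546 and 0.305), with the signs of LCP1, as had LRRC63.

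Genes that followed LCP1 most closely were sought over the 10 libraries, with log2 CPM centred within each experiment, among 11544 genes that averaged at least 5 CPM. The highest Pearson r was 0.958 for CCNC, which encodes cyclin C of the Mediator kinase module, followed by 0.957 for CAV1, the coat protein of caveolae. SH3RF3 had r = 0.955, EFNA1 0.949, AIG1 0.948 and SPTB 0.945. The lowest were −0.951 for IRF2BPL, −0.950 for BAMBI and −0.949 for KDM5C. PLS1 had r = 0.803 at rank 136, PLS3 r = 0.280 and FSCN1 r = −0.277. The libraries share group, experiment and depth, so these values describe likeness only. CCNC moved far less than LCP1, with 45.0 to 47.8 CPM in PHF10 knockdown, against 40.7 CPM in both controls, and 39.7 and 41.9 CPM in the labelled MYC knockdown, against 48.3 and 47.9 CPM. CAV1 had 79.1, 71.0, 83.3 and 111.2 CPM in PHF10 knockdown, against 51.8 and 56.6 CPM in the controls of experiment 1, and 20.6 and 21.4 CPM in the labelled MYC knockdown, against 58.8 and 60.1 CPM for controls of experiment 2. Unlike LCP1, its controls thus stood close together in the 2 experiments.

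Of 41 other proteins that bundle or crosslink actin, 34 were tested, and 1 rose and 2 fell after PHF10 knockdown, where 2.75% of all genes passed as higher and 3.58% as lower. The median log2 fold change was 0.03, against 0.02 over all tested genes. IQGAP1, a scaffold that crosslinks filaments at the cell edge, had 400, 344, 361 and 444 CPM in PHF10 knockdown, against 233 and 240 CPM in the controls. All knockdown libraries were higher, and it rose by 0.71 (log2; SE 0.13, edgeR adjusted p = 0.0153). CNN3, a calponin that binds along filaments, fell by 0.61 (SE 0.13, adjusted p = 0.0244), and MARCKSL1, a crosslinker at the membrane, fell by 0.78 (SE 0.17, adjusted p = 0.0286). In the labelled MYC knockdown 0 rose and 1 fell (median −0.09, against −0.01 over all), where 0.493% of all genes passed. That gene was SYNPO, synaptopodin, with 26.1 and 23.9 CPM, against 56.2 and 59.9 CPM in the controls, and it fell by 1.21 (SE 0.16, adjusted p = 0.0219).

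Among 49 genes of actin filaments, their assembly and turnover, all tested, 1 rose and 5 fell after PHF10 knockdown (median −0.04), beside 2.75% higher and 3.58% lower over all genes. MYO10, the motor that carries cargo to filopodium tips, had 14.2, 17.8, 13.9 and 13.5 CPM in PHF10 knockdown, against 27.5 and 27.9 CPM in the controls, and fell by 0.90 (SE 0.13, edgeR adjusted p = 0.00572). ENAH and EVL, which lengthen filaments at those tips, fell by 0.75 (SE 0.15, adjusted p = 0.0188) and 0.58 (SE 0.12, adjusted p = 0.0238). The formin DIAPH3 fell by 0.98 (SE 0.20, adjusted p = 0.0222) and the monomer-binding profilin PFN2 by 0.61 (SE 0.10, adjusted p = 0.0116), while the nucleator COBL rose by 0.80 (SE 0.16, adjusted p = 0.019). In the labelled MYC knockdown 0 rose and 1 fell (median −0.03), beside 0.493% of all genes, namely the tropomyosin TPM1, which stabilises filaments. TPM1 had 86.7 and 93.4 CPM, against 238.4 and 237.1 CPM in the controls, and fell by 1.40 (SE 0.19, adjusted p = 0.0221). Several fits lost these calls: all 9 calls after PHF10 knockdown on both lists were lost without control replicate 2 of experiment 1 (adjusted p = 0.0502 to 0.214), all but ENAH and MYO10 without control replicate 1 (0.0654 to 0.167), and all 9 with experiment 1 fitted alone (0.0649 to 0.134). Leaving out PHF10 knockdown replicate 4 lost MARCKSL1 (0.055), and leaving out a library of experiment 2 lost CNN3, EVL and MARCKSL1 (adjusted p up to 0.0638) and, for either control, DIAPH3 (0.0516 and 0.0518). SYNPO and TPM1 were lost without any 1 library of experiment 2 (0.179 to 0.344). Within experiment 1 alone, where 0.28% of all genes passed, 0 genes of both lists did (4 and 10 at an unadjusted p under 0.05). Within experiment 2 alone, where 21.9% of all genes passed as higher and 22.6% as lower, 9 rose and 15 fell on the bundler list and 10 rose and 21 fell on the assembly list.

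Since LCP1 is the plastin of white blood cells, 25 markers of leukocytes were set beside it. Their summed level was 46.7 to 73.1 CPM in PHF10 knockdown, against 33.9 and 29.9 CPM in the controls of experiment 1, and 17.9 and 22.2 CPM in the labelled MYC knockdown, against 40.5 and 41.6 CPM for controls of experiment 2. The sum thus moved in the direction of LCP1 in both experiments, and its part in the LCP1 result was not tested. Some leukocyte genes were at or near 0: PTPRC, which encodes CD45, had at most 3 reads in a library, and CD2, MS4A1 and TYROBP had 0 reads in all 10. Others had reads in all 10 libraries. Among them CORO1A, LAPTM5, FCER1G, CD14 and ITGAM reached 9.24, 8.16, 1.66, 1.22 and 0.97 CPM. The filter on low counts kept 12 of the 25, and the highest levels were those of ITGAX and LYZ, which reached 31.1 and 30.4 CPM. These 2 also held the most reads of the list over all 10 libraries (2874 and 3035). The median log2 fold change of the 12 was 0.74 after PHF10 knockdown, against 0.02 over all tested genes. In the labelled MYC knockdown it was −0.84, against −0.01, and for the difference of the responses 2.30, against 0.01. At an unadjusted p under 0.05 by edgeR, 3, 4 and 8 of the 12 passed in the same order, beside 4184, 2435 and 2157 of all 18450. After PHF10 knockdown 1 of the 12 rose and 0 fell, beside 2.75% and 3.58% of all genes. ITGAX, an integrin alpha chain of myeloid cells, had 31.1, 20.4, 14.0 and 22.2 CPM, against 9.06 and 5.83 CPM in the controls, and rose by 1.56 (SE 0.34, edgeR adjusted p = 0.0265). The leukocyte genes given with values, and CPB2-AS1, LINC01198 and ENSG00000285576 near LCP1, were named after their values were seen. In the labelled MYC knockdown 0 rose and 2 fell, beside 0.282% and 0.211% of all genes. With each experiment fitted alone, 0 passed in experiment 1, where only 0.28% of all genes did. In experiment 2, where 44.5% of all genes passed, 1 rose and 7 fell of 11 tested. ARHGDIB had 0.48 and 0.45 CPM, against 7.71 and 8.05 CPM in the controls, and fell by 4.07 (SE 0.45, adjusted p = 0.0114). ITGB2, the beta chain that pairs with ITGAX, had 0.80 and 1.30 CPM, against 3.71 and 3.66 CPM, and fell by 1.81 (SE 0.32, adjusted p = 0.0482). The responses differed for ARHGDIB (4.13, SE 0.58, adjusted p = 0.0298). ITGAX missed the threshold without either control of experiment 1 (adjusted p = 0.0827 and 0.217) or of experiment 2 (0.0550 for both), and with experiment 1 fitted alone (0.101). ITGB2 missed it without PHF10 knockdown replicate 3, either control of experiment 1 or any library of experiment 2 (0.0627 to 0.414), and with upper-quartile factors (0.0514), and ARHGDIB without any library of experiment 2 (0.0885 to 0.219). The difference for ARHGDIB missed it without any control of experiment 1 or library of experiment 2 (0.0637 to 0.230).

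**Figure D4:**
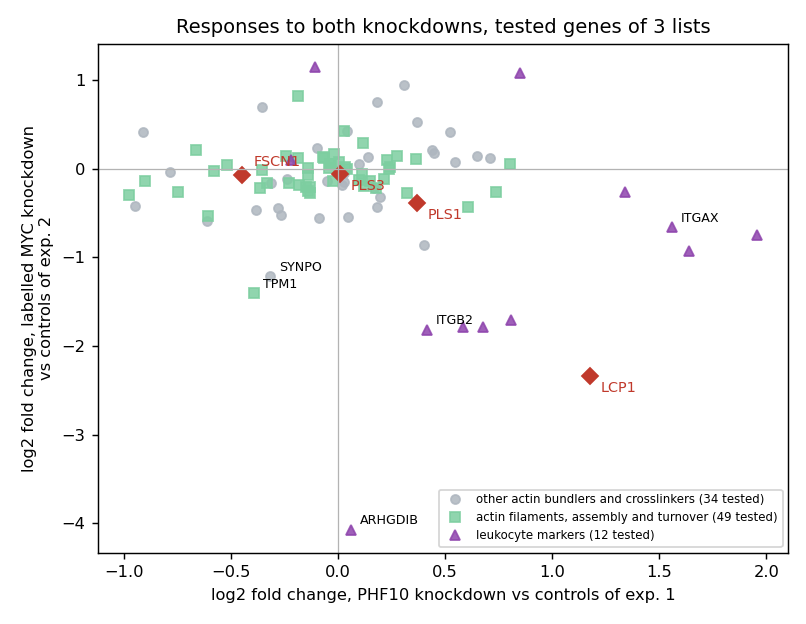
Log2 fold change after PHF10 knockdown (x axis) against that in the labelled MYC knockdown (y axis) for the tested genes of 3 lists (34 other bundlers and crosslinkers, 49 assembly genes, 12 leukocyte markers) and the 4 bundlers described here (diamonds). LCP1 lies at the lower right (1.18 and −2.33), apart from its relatives and from most actin genes, which gather near 0 on both axes; several low-abundance leukocyte markers lie on its side.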

How the data were processed

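The 10 A375 libraries hold poly(A)-selected RNA in strand-specific single-end form, per the labels' protocols. The submitters' processing notes name cutadapt, STAR and the build GRCh38.p13 (hg38); their versions and annotation were not given in the sources used here. Raw read counts per gene were deposited, in an unstranded and 2 stranded columns, and the opposite-strand column was used. The 4 summary lines that name no gene held 19.1% to 23.6% of a library and were left out. Symbols came from a gene name table (60295 IDs) and coordinates and exon lengths from GENCODE release 29 (58457 IDs).

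Counts were fitted here with edgeR 4.0.16 (R 4.3.3), quasi-likelihood with TMM factors, filterByExpr and robust spread, over all libraries as 4 group means; calls use a Benjamini-Hochberg adjusted p under 0.05, and SE is the log2 fold change over the root of F. Intervals are 95% and use the moderated degrees of freedom (9.67). CPM values use the TMM-scaled library sizes. On simulated counts for the PHF10 comparison, 100 of 18450 genes were changed by 1 on the log2 scale and 100 by 2. Of these, 70% and 97% were recovered, with 11 false calls among the unchanged genes. The changed genes were drawn from those averaging above 5 CPM, so the LCP1 levels of experiment 1 were not covered. Other genes kept 1 mean in all libraries, without the interferon split or the difference between experiments. Alternatives were DESeq2 1.42.0, limma-voom 3.58.1, other scalings and filters, unstranded counts, each experiment alone, a replicate block, an interferon covariate and leaving out each library.

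The members and gene lists were chosen with earlier results of these data known. Named genes were the members, PHF10 and MYC, up to 5 genes per direction of 2 actin lists past the threshold, protein-coding neighbours of LCP1 within 250 kb, leukocyte markers at or near 0, and the 6 genes most and 3 least like LCP1. Other leukocyte markers were named after their values were seen. Promoters came from RefSeq (GRCh38.p14), where 3 of the 4 members matched, all but FSCN1.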

Additional observations from a re-analysis of the deposited data

Results flagged for a closer look

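LCP1 was higher in all 4 PHF10 knockdown libraries than in both of their controls and lower in both libraries labelled MYC knockdown than in both of theirs, so the responses ran in opposite directions in every library. The difference of the responses was 3.51 on the log2 scale. It was not tested, because LCP1 was chosen for it, and 2.48% of all tested genes separated their groups in the same directions in both experiments.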

How the results depend on the processing

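The log2 fold changes of LCP1 kept their sign under every alternative run. With 1 library left out they ran from 0.98 to 1.40 after PHF10 knockdown, from −2.44 to −2.24 in the labelled MYC knockdown, from 3.32 to 3.73 for the difference and from 3.37 to 3.79 between the controls. PLS1 passed in the labelled MYC knockdown with experiment 2 fitted alone (−0.37). Between the controls it missed the threshold with upper-quartile factors (0.51), a filter of 1 CPM in 4 libraries (0.59) and the replicate block (0.62), and ran from 0.61 to 0.66 with 1 library left out; without PHF10 knockdown replicate 4, or any control or library of experiment 2, it missed the threshold. PLS3 passed between the controls with the interferon covariate (0.29). FSCN1 passed after PHF10 knockdown with the replicate block (−0.66, adjusted p = 0.0495, where 2.73% of all genes passed as lower) and with the interferon covariate (−0.51). Deviations of same-numbered libraries from their group means correlated with r of 0.48 and −0.30 in experiment 1 and −0.03 in experiment 2. With 2 controls per experiment their deviations mirror each other, so these values cannot settle whether replicate numbers pair samples. The replicate block also ended the calls of IQGAP1 (0.0564), COBL (0.0925) and EVL (0.0802) after PHF10 knockdown, of SYNPO (0.0905), TPM1 (0.0778), ITGB2 (0.113) and ARHGDIB (0.0894) in the labelled MYC knockdown, and of ARHGDIB for the difference (0.0816), all as adjusted p. Genes called after PHF10 knockdown numbered 1169, but 2372 without a filter, 2165 by DESeq2, 50 with experiment 1 alone, 2572 with the covariate, and 214 to 1387 with 1 library left out (214 and 219 without a control of experiment 1, 594 to 626 without a library of experiment 2). Those in the labelled MYC knockdown numbered 91, but 911 without a filter, 720 by DESeq2, 211 by limma, 7781 with experiment 2 alone, 0 with the replicate block, 577 with the covariate, and 0 to 231 with 1 library left out (0 without any library of experiment 2). The difference passed for 71 genes, but 918, 633, 1 and 521 without a filter, by DESeq2, with the block and with the covariate, and for 1 to 140 with 1 library left out. Between the controls 2702 passed, 4419 with the covariate and 554 to 3428 with 1 library left out. The cause was not tested. LCP1 rests on 23 and 33 reads in the controls of experiment 1, which limits its fold there.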
